A study of Homo sapiens with 27 samples.

Results

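The change from confluence to overconfluence was examined in MMP2sh1 cells, a pool of U2OS cells in which matrix metalloproteinase 2 (MMP-2) was depleted with 1 of 2 shRNAs. U2OS is a human osteosarcoma line. The MMP2sh1 pool was made by stable transduction of the pLKO.1 vector carrying the shRNA labelled 23 and selection in puromycin. Cells were plated at low density and reached confluence on day 0, and overconfluent cells were collected on day +2. Members are 6 of the 27 poly(A) RNA libraries of the series, 3 from day 0 and 3 from day +2, chosen by their labels for line and day. The study describes its 3 libraries per group as independent biological replicates. The control, which the labels title WT and describe as carrying the empty pLKO.1 vector, and MMP2sh2, a pool with a second MMP2 shRNA (26), enter only where the size of the change was compared between lines. Each line is 1 transduced pool. Density and time in culture moved together and cannot be told apart, since the overconfluent cells were also the older cultures.

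Cells in a dish that meet their neighbours generally slow their division, a response known as contact inhibition, which tumour lines such as U2OS retain in part. Crowded mesenchymal cells also deposit extracellular matrix, use up nutrients in the medium and alter signalling through pathways that read adhesion and shape, such as YAP. MMP-2 is a secreted gelatinase that degrades matrix, and its nuclear form is known as a protease of the histone H3 N-terminal tail.

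Counted reads on genes ranged from 33580129 to 59142223 in the day 0 libraries and from 37907001 to 40714835 in the day +2 libraries. Replicates of both days differed by more than the sampling noise, with a chi-square of at least 4.96 per degree of freedom, so no library was a duplicate of another. Mitochondrially encoded genes took 5.18% to 6.13% of the counts on day 0 and 6.53% to 7.15% on day +2, with no overlap between the days. The line markers VIM, RUNX2, CD44 and COL1A1 were present in all 6 libraries, at 40.3 CPM or more. COL1A2 held at most 17 reads and NT5E, another mesenchymal marker, at most 5 reads per library.

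From day 0 to day +2 the transcriptome of MMP2sh1 cells changed broadly but mostly by small steps. Of 19338 genes that passed the low-count filter, 8904 (46%) were called, that is, had a Benjamini-Hochberg adjusted p under 0.05 in edgeR's quasi-likelihood test of 3 against 3 libraries. The calls were balanced, with 4465 genes higher on day +2 (23.1% of those tested) and 4439 lower (23%). The median change of called genes was 0.58 on the log2 scale among those that rose and −0.43 among those that fell, and 5175 called genes changed by less than 1.5-fold. Larger changes leaned upward. More than 2-fold, 1296 genes rose (6.7%) and 732 fell (3.79%), and more than 4-fold, 406 rose (2.1%) and 222 fell (1.15%). The 3 libraries of one day did not overlap those of the other in CPM for 10344 genes (53.5%). Among called genes the number was 8542 (95.9%). The median log2 fold change of all tested genes was 0.0063, so that the changes below are read against a centre near 0. Scaling of the libraries (TMM) largely sets this centre, so a shift of total mRNA between the days could not be seen. The plot of change against level shows that calls were made over the whole range of expression.

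**Figure D1:**
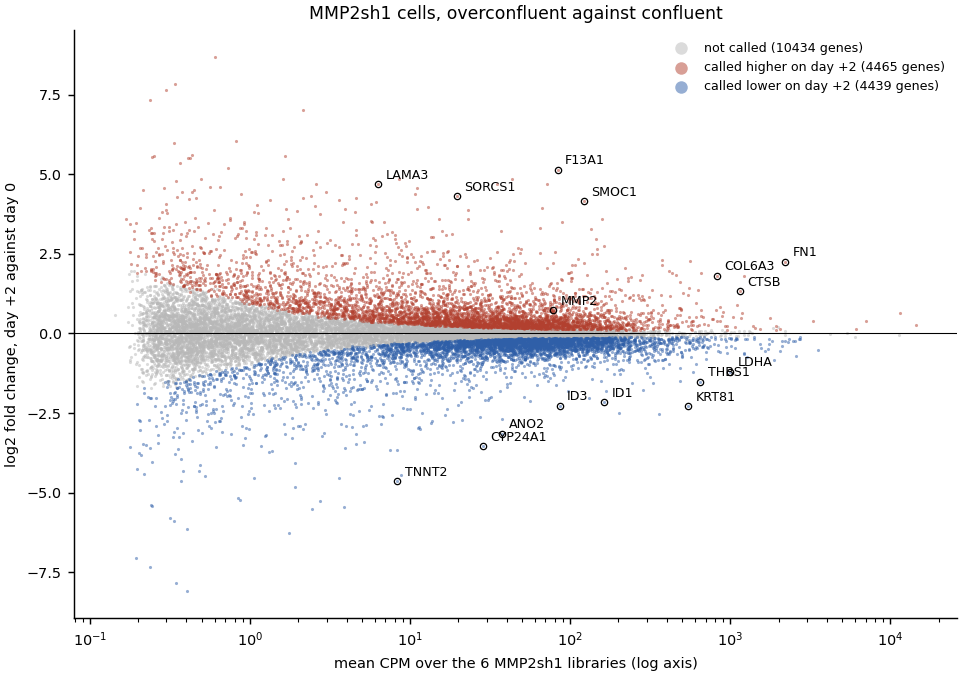
Each point is 1 of 19338 tested genes, with its mean CPM over the 6 MMP2sh1 libraries on a log x axis and its log2 fold change, day +2 against day 0, on the y axis. Red points are the 4465 genes called higher, blue points the 4439 called lower and grey points the rest, and 16 named genes are circled, among them F13A1 at 5.14 and TNNT2 at −4.63.

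MMP2 itself (chr16:55423612-55540603, + strand, hg19 build) rose with overconfluence in spite of the shRNA. Its level was 53.6, 57.4 and 66.3 CPM on day 0 and 97.3, 93.8 and 100.1 CPM on day +2, a 1.66-fold rise (log2 fold change 0.73, SE 0.066, adjusted p = 3.2e-09). The day +2 libraries all lay above the day 0 libraries. In control cells MMP2 was at 325 ± 6.97 CPM on day 0 and 489.5 ± 8.5 CPM on day +2 (SD, n = 3), so that the depleted line was below control on both days. In MMP2sh2 cells it was at 158 ± 3.28 and 278 ± 12.4 CPM. The size of the rise was not distinguished from that of control (interaction 0.13 on the log2 scale, SE 0.075, adjusted p = 0.4). CTSB, which encodes the lysosomal protease cathepsin B, was at 639, 641 and 678 CPM on day 0 and 1689, 1571 and 1630.0 CPM on day +2. Its rise of 2.52-fold (log2 fold change 1.33, SE 0.039, adjusted p = 5.2e-18) was larger than that of control cells by 0.38 on the log2 scale (SE 0.053, adjusted p = 1.1e-05), which went from 973 ± 3.65 to 1868 ± 46.1 CPM and were higher on both days. It was also larger than that of MMP2sh2 cells (0.36, adjusted p = 0.00011).

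F13A1 (chr6:6144317-6321246, - strand), the catalytic subunit of the transglutaminase factor XIII that crosslinks fibrin and matrix proteins, was at 4.66, 4.29 and 4.96 CPM on day 0 and 162, 155 and 170.3 CPM on day +2. This was a 35.3-fold rise (log2 fold change 5.14, SE 0.074, adjusted p = 4.2e-23). RGS16 (chr1:182567758-182573524, - strand), a regulator that shortens G protein signalling, was at 2.58, 3.7 and 2.44 CPM on day 0 and 87.4, 73.5 and 88.8 CPM on day +2 (29-fold). PLCH1 (chr3:155093369-155462860, - strand), a phospholipase C, was at 2.84, 2.14 and 2.79 CPM on day 0 and 59.7, 70.9 and 70.2 CPM on day +2 (25.8-fold). Like all 12 largest rises, both genes were chosen among those with a mean of at least 5 CPM and no overlap between the days. CHI3L1 (chr1:203148059-203155832, - strand), a secreted chitin-binding glycoprotein, was at 5.69, 4.78 and 5.35 CPM on day 0 and 142, 136 and 134 CPM on day +2 (26.1-fold). SMOC1 (chr14:70320848-70499083, + strand), a secreted matricellular protein known as an antagonist of bone morphogenetic protein (BMP) signalling, was at 12.2, 11.9 and 14.7 CPM on day 0 and 239, 224 and 225 CPM on day +2 (17.9-fold). SORCS1 (chr10:108333421-108924464, - strand), a sorting receptor of the sortilin family, was at 1.89, 1.8 and 1.99 CPM on day 0 and 37.1, 38.3 and 35.8 CPM on day +2 (19.8-fold). In each of these 3 genes the replicates of a day lay close together relative to the step between the days.

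The other 6 of the 12 largest rises started from at most 1.1 CPM in any day 0 library. They passed the limit of 5 CPM on the mean only through their day +2 libraries. So did F13A1, RGS16, PLCH1 and SORCS1, whose day 0 means were 4.64, 2.9, 2.59 and 1.89 CPM. DMBT1, a secreted scavenger receptor protein, had a log2 fold change of 4.84. LAMA3, a laminin chain of basement membranes, was at 0.298, 0.567 and 0.624 CPM on day 0 and 12.2, 13.2 and 11 CPM on day +2 (log2 fold change 4.7, SE 0.21). PRND, a relative of the prion protein, and SLC14A1, a urea transporter, changed by 4.57 and 4.39 on the log2 scale. CMKLR1, the chemerin receptor, changed by 4.13. KLRC2, a receptor of natural killer cells, changed by 4.06. Its annotation overlaps that of the near-identical KLRC1, so its reads may have been lost or assigned to the wrong copy. All 12 genes had an adjusted p of 1.6e-13 or less.

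**Figure D2:**
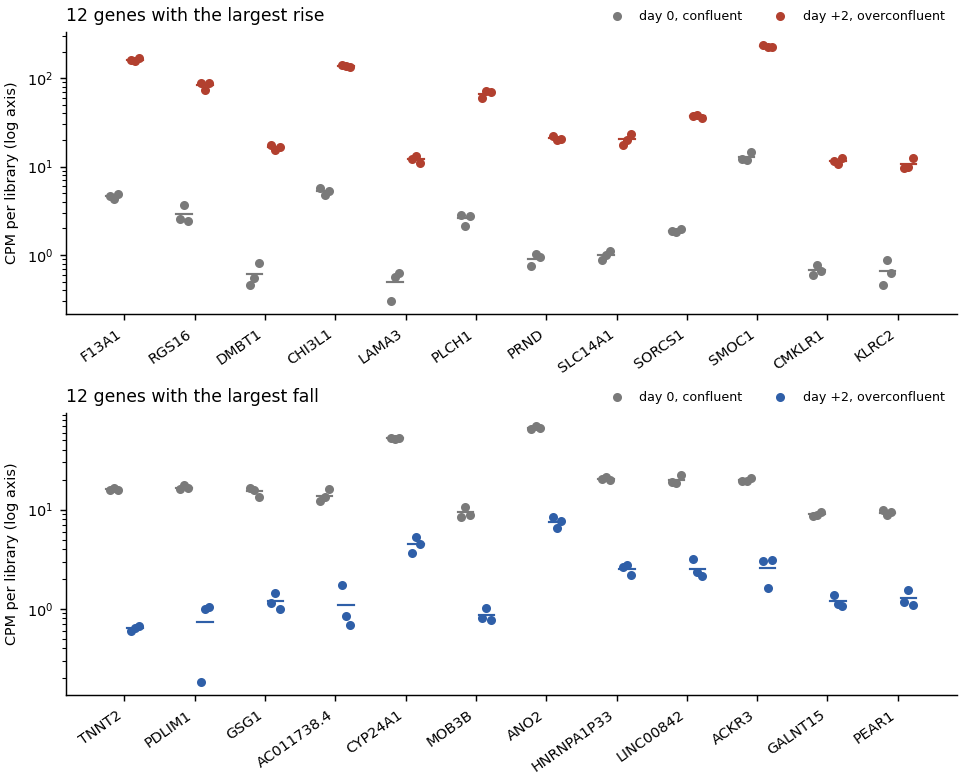
CPM of each MMP2sh1 library on a log axis for the 12 called genes with the largest rise (top) and the largest fall (bottom) among those of at least 5 CPM on average and without overlap, with day 0 in grey, day +2 in colour and a bar at the mean of 3 libraries. Separation of the days follows from this choice, and the widest spread is that of PDLIM1 on day +2, from 0.181 to 1.05 CPM.

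Among genes with a mean of at least 5 CPM and no overlap between the days, the largest falls were in genes of diverse roles. They ran from a sarcomere protein to a steroid enzyme and an ion channel. TNNT2 (chr1:201328136-201346892, - strand), cardiac troponin T, was at 15.9, 16.4 and 15.6 CPM on day 0 and 0.596, 0.64 and 0.671 CPM on day +2. It fell 24.8-fold (log2 fold change −4.63, SE 0.16, adjusted p = 8.5e-17). PDLIM1 (chr10:96997329-97050769, - strand), a PDZ-LIM protein of actin stress fibres, was at 16, 17.5 and 16.4 CPM on day 0 and 0.181, 0.998 and 1.05 CPM on day +2 (21.9-fold lower). CYP24A1 (chr20:52769985-52790525, - strand), the enzyme that inactivates vitamin D, was at 52.9, 51.9 and 53 CPM on day 0 and 3.68, 5.25 and 4.53 CPM on day +2 (11.6-fold lower). ANO2 (chr12:5641035-6055398, - strand), a calcium-activated chloride channel, was at 64.8, 70.1 and 67 CPM on day 0 and 8.42, 6.55 and 7.69 CPM on day +2 (8.84-fold lower). The absence of overlap between the days in these 4 genes follows from that choice. Except for ANO2, the 12 largest falls had means under 5 CPM on day +2 and passed the limit only through their day 0 libraries.

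ACKR3 (chr2:237476430-237490997, + strand), the receptor that scavenges the chemokine CXCL12, was at 19.6, 19.6 and 20.8 CPM on day 0 and 3.03, 1.64 and 3.09 CPM on day +2 (7.65-fold lower). The other falls were GSG1 (log2 fold change −3.67), AC011738.4 (−3.66), MOB3B (−3.42), HNRNPA1P33 (−3.01), LINC00842 (−2.96), the glycosyltransferase GALNT15 (−2.91) and the receptor PEAR1 (−2.86). HNRNPA1P33 is a processed pseudogene inside LINC00842, on the same strand, and pseudogene reads can belong to a parent gene, so the values of both are uncertain. GSG1 overlaps FAM234B and MOB3B overlaps IFNK, and strand was not used in counting. AC011738.4 was named only by its symbol, without a position here.

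The 6 most abundant genes that rose more than 2-fold were FN1, TIMP1, CTSB, COL6A3, SLC20A1 and MRC2. FN1, fibronectin, was at 694, 748 and 869 CPM on day 0 and 3655, 3752 and 3481 CPM on day +2, a 4.75-fold rise (log2 fold change 2.25, SE 0.055, adjusted p = 2.1e-19). TIMP1, an inhibitor of matrix metalloproteinases, was at 536, 541 and 557 CPM on day 0 and 1978, 1773 and 1962 CPM on day +2 (3.52-fold). COL6A3, a chain of collagen VI, was at 344, 361 and 398 CPM on day 0 and 1296, 1294 and 1271 CPM on day +2 (3.53-fold). In FN1 the day 0 libraries themselves spanned 694 to 869 CPM, a spread small beside the step to day +2. SLC20A1, a sodium-phosphate cotransporter, rose 3.72-fold, and MRC2, the receptor that takes up collagen for degradation, rose 2.57-fold. The annotation places TIMP1 within the span of SYN1.

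The strongly expressed genes that fell had mixed roles, and THBS1 among them is a matrix glycoprotein like FN1. LDHA, which makes lactate from pyruvate, was at 1424, 1370.0 and 1375 CPM on day 0 and 576, 609.7 and 619 CPM on day +2, a 2.29-fold fall (log2 fold change −1.2, SE 0.039, adjusted p = 3.7e-17). KRT81, a hair keratin, was at 923, 916 and 880.5 CPM on day 0 and 191, 177 and 182 CPM on day +2 (4.91-fold lower), with the caveat that its annotation overlaps KRT86. THBS1, thrombospondin 1, was at 944, 980.1 and 976 CPM on day 0 and 327, 353 and 323 CPM on day +2 (2.87-fold lower). These 3 genes separated the days without overlap, as did 95.9% of all called genes. EEF1A2, an isoform of a translation elongation factor, fell 2.3-fold, CLPTM1L fell 2.12-fold and RHOBTB3 fell 2.84-fold.

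A set of 34 gene lists was then read for how many members moved each way. The counts below stand against the background of 23.1% of tested genes called higher and 23% called lower, and the list medians against 0.0063 over all tested genes. No list was tested as a set. The plot of the lists gives every tested member.

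**Figure D3:**
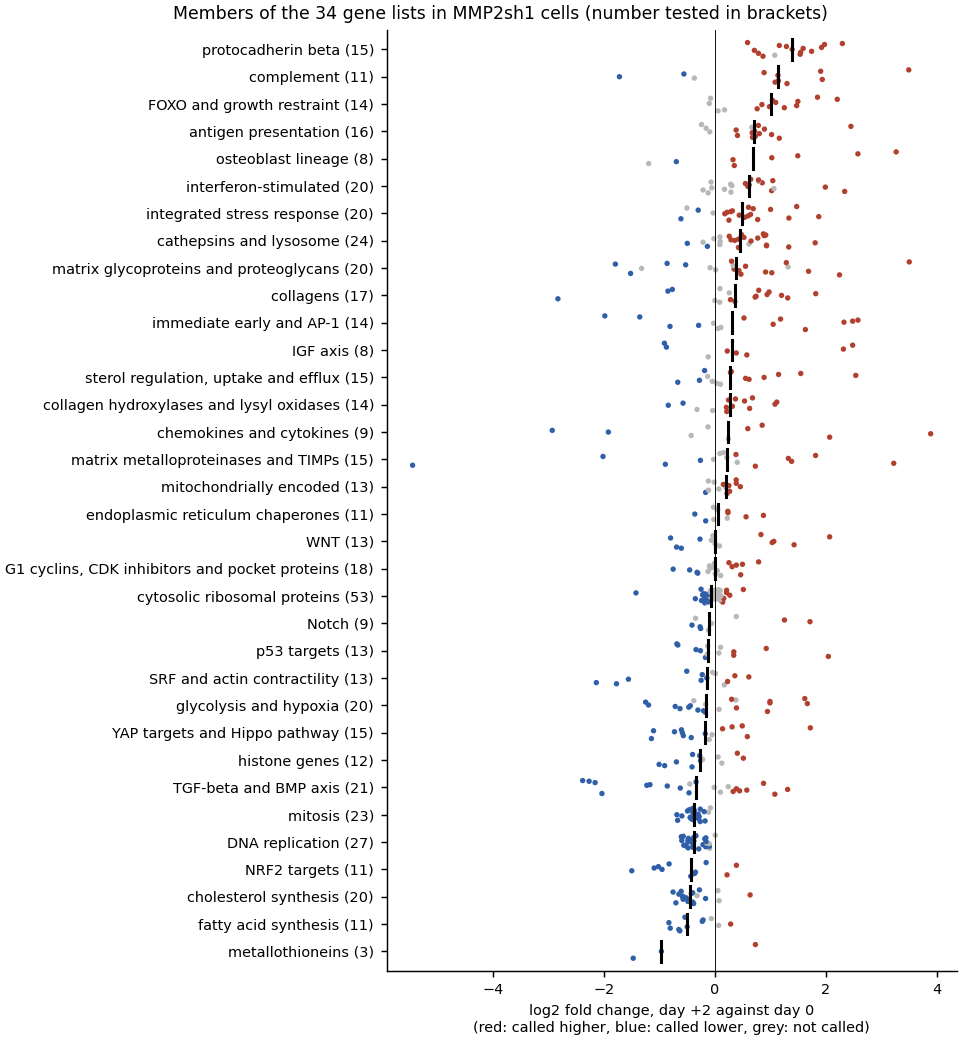
Log2 fold change, day +2 against day 0, of each tested member of 34 gene lists in MMP2sh1 cells, with the number tested in brackets, called members in red (higher) or blue (lower), others in grey and a black bar at the list median. Protocadherin beta genes, complement and FOXO and growth restraint genes have the highest medians (1.39, 1.14 and 1.01). The mitosis and DNA replication members form tight groups, with 0 and 1 members above 0.

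Cell cycle genes fell in a uniform and shallow way. In the mitosis list 21 of 23 members were called lower and 0 higher, with a median of −0.37, and in the DNA replication list 23 of 27 were called lower and 0 higher, with a median of −0.38. CDC20, the activator of the anaphase-promoting complex, was at 349, 340.2 and 347 CPM on day 0 and 210.0, 213 and 216 CPM on day +2 (log2 fold change −0.69, SE 0.043, adjusted p = 4.4e-12). CCNA2, cyclin A2, was at 218, 209 and 214 CPM on day 0 and 128, 134 and 137 CPM on day +2 (log2 fold change −0.67). AURKA, a kinase of the mitotic spindle, changed by −0.60. Among replication genes RRM2, a subunit of ribonucleotide reductase, was at 368, 363 and 353 CPM on day 0 and 229, 231 and 247 CPM on day +2 (log2 fold change −0.61), and RFC3, part of the clamp loader, changed by −0.60. No member of either list fell as much as 2-fold. In bulk RNA a smaller share of cycling cells and less of these mRNAs in each cell cannot be told apart. The G1 regulators were mixed, with 6 of 18 tested members called higher and 4 lower, the latter near the share over all genes (median −0.0018). The rises were led by CCNG2, an atypical cyclin of resting cells (51.3 to 88 CPM, log2 fold change 0.79), the CDK inhibitor CDKN1C (0.50) and the D-type cyclin CCND2 (0.47), and the CDK inhibitor CDKN1B rose by 0.39. The falls were E2F2 (−0.75), E2F1 (−0.46), CCNE1 (−0.31) and CCNE2 (−0.32), transcription factors and cyclins of S phase entry.

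Mitotic genes are known to share promoter elements, the cell cycle homology region (CHR, TTTGAA) and CCAAT boxes. The 250 bases before the RefSeq start were searched on both strands. The shares describe the genes of a list and do not depend on their change between the days. CHR letters were found in 10 of the 18 mitosis members with a promoter in the table (55.6%) and in 13.6% of all 27305 promoters, and CCAAT in 16 of 18 (88.9%) against 33% of all. In the DNA replication list 1 of 24 promoters held the CHR letters (4.17%). Promoters of 3 mitotic genes are shown in GRCh38.p14 coordinates, with CHR and CCAAT letters of either strand in capitals. CCNB2 encodes cyclin B2 (chr15:59104896-59105145, + strand), CDC20 was described above (chr1:43358731-43358980, + strand) and PLK1 is a mitotic kinase (chr16:23678639-23678888, + strand). Their log2 fold changes were −0.42, −0.69 and −0.28. In CCNB2 and PLK1 the CHR letters start 29 bases before the RefSeq start.
CCNB2: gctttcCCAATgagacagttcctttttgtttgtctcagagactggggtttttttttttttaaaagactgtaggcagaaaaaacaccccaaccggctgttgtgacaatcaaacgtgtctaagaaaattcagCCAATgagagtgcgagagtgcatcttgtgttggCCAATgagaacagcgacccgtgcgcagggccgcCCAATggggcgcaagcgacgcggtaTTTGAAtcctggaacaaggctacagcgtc
CDC20: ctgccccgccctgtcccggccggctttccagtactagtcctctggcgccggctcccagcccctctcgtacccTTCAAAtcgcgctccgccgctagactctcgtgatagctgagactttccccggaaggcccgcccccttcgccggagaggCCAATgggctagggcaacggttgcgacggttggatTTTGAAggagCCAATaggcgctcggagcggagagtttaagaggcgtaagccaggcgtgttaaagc
PLK1: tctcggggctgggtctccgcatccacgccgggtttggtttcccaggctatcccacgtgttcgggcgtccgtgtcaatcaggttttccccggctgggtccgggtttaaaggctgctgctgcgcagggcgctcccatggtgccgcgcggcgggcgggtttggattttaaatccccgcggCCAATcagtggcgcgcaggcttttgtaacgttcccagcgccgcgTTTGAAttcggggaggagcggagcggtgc

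Lipid synthesis genes fell, while genes of sterol export rose. Of 20 cholesterol synthesis genes 16 were called lower and 1 higher (median −0.44). EBP, a sterol isomerase, was at 69.3, 66.9 and 65.7 CPM on day 0 and 38.5, 41.2 and 39.1 CPM on day +2 (log2 fold change −0.75, SE 0.061, adjusted p = 4.2e-10). HMGCS1, the synthase at the head of the pathway, was at 146, 142 and 137 CPM on day 0 and 85.8, 83.1 and 90.4 CPM on day +2 (−0.70). MSMO1, a sterol methyl oxidase, was at 74 and 46.9 CPM (−0.65), and TM7SF2, a sterol reductase, was the member called higher (0.64). Of 11 fatty acid synthesis genes 8 were called lower and 1 higher (median −0.50), with SCD at 454 and 254 CPM on the respective days (−0.83) and FASN at 904 and 513 CPM (−0.81). The elongase ELOVL6 was called higher (0.28). In the list of sterol regulation, uptake and efflux, 8 of 15 tested members were called higher and 3 lower (median 0.28). The cholesterol exporter ABCA1 was at 2.12, 1.68 and 2.41 CPM on day 0 and 9.92, 12 and 13.8 CPM on day +2 (2.54, adjusted p = 9.4e-12). ABCG1, a related exporter, rose by 1.15, and APOE, which carries lipid, by 1.55 from 0.823 CPM. The letters TCACNCCA, a core of the sterol regulatory element, were in 2 of 15 promoters of the cholesterol synthesis list (13.3%) and in 3.18% of all promoters. Among those that fell were INSIG1, which retains the sterol sensor in the endoplasmic reticulum (−0.67), and SOAT1, which esterifies cholesterol (−0.19).

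Glycolysis and hypoxia genes split. Of 20 tested members 7 were called higher and 9 lower (median −0.17). Enzymes of glycolysis fell, with ENO1, enolase, at 3187 and 1926 CPM (−0.72), ALDOA, aldolase, at 1155 and 741 CPM (−0.63) and LDHA as given above. BNIP3, a mitophagy receptor induced in hypoxia, was at 33.6, 34.2 and 32.2 CPM on day 0 and 12.4, 15.3 and 14 CPM on day +2 (log2 fold change −1.25, SE 0.087, adjusted p = 3e-11). In contrast VEGFA, the angiogenic growth factor, was at 43.6, 41.5 and 43.4 CPM on day 0 and 145, 132 and 129 CPM on day +2 (1.67), and DDIT4, an inhibitor of mTORC1, was at 16.4, 12.7 and 12.9 CPM on day 0 and 42.1, 45 and 42.5 CPM on day +2 (1.62). NDRG1 (0.99), ADM (0.99) and the glucose transporter SLC2A3 (0.95) also rose. The antioxidant and pentose phosphate genes under NRF2 mostly fell, with 9 of 11 called lower and 2 higher (median −0.44). The letters TGACNNNGC, a core of the element that NRF2 binds, were in 3 of 9 promoters of that list (33.3%) and in 11% of all promoters. TXNRD1, thioredoxin reductase, was at 229 and 80.3 CPM (−1.5) and ME1, malic enzyme, at 34.4 and 16.9 CPM (−1.02). The 2 called higher were OSGIN1 (0.39) and HMOX1 (0.22), and without day 0 replicate 1 neither was called, while without day +2 replicate 1 there was 1.

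Genes of the integrated stress response, through which ATF4 raises amino acid synthesis and transport, rose. Of 20 members 16 were called higher and 2 lower (median 0.49). ASNS, asparagine synthetase, was at 103, 107 and 94.6 CPM on day 0 and 247, 234 and 281 CPM on day +2 (log2 fold change 1.34, SE 0.061, adjusted p = 1.5e-14). CHAC1, which degrades glutathione, was at 3.64, 4.83 and 4.19 CPM on day 0 and 15.5, 12.8 and 17.5 CPM on day +2 (1.87, adjusted p = 9.6e-11). Both genes had every day +2 library above every day 0 library, and 95.9% of all called genes separated the days. FGF21 rose by 1.48 from 0.487 CPM, CEBPB by 1.0 and DDIT3, the factor CHOP, by 0.77. ATF3 (−0.61) and VLDLR (−0.30) were called lower. Chaperones of the endoplasmic reticulum moved little, with 4 of 11 called higher and 2 lower (median 0.051). HERPUD1 rose by 0.88 and XBP1 by 0.56, while SDF2L1 (−0.36) and HSPA5, the chaperone BiP (−0.17), were called lower.

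ATF4 acts on C/EBP-ATF composite elements, searched here as TGATGNAA on both strands. These letters were found in 4 of 17 stress response promoters (23.5%) and in 3.19% of all promoters. The 4 were those of ASNS, CHAC1 and FGF21, which rose, and ATF3, which was called lower. The letters are in capitals in the 250 bases before the starts of ASNS (chr7:97872409-97872658, - strand) and CHAC1 (chr15:40953221-40953470, + strand). Both promoters are shown because their genes rose steeply. The letters start 68 and 209 bases before the RefSeq start.
ASNS: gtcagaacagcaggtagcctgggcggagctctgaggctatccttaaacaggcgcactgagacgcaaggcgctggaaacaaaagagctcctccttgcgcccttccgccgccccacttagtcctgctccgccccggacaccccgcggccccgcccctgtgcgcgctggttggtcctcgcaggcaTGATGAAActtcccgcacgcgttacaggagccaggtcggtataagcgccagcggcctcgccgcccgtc
CHAC1: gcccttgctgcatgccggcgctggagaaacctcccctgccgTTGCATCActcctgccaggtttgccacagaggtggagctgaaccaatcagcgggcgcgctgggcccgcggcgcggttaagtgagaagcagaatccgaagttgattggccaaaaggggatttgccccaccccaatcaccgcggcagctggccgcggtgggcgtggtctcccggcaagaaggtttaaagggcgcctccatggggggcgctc

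Matrix genes rose on balance. Of 17 tested collagens 10 were called higher and 3 lower, with a median of 0.36 that was 0.64 without day +2 replicate 3. After COL6A3, the largest rises were in COL11A1 (78.4, 85.7 and 91 CPM on day 0 and 228, 218 and 183 CPM on day +2, log2 fold change 1.31) and COL6A1 (332 and 759 CPM, 1.2). COL5A3 (3.86 and 0.532 CPM, −2.83), COL12A1 (−0.85) and COL16A1 (−0.77) fell. COL1A1, the main chain of bone collagen, was at 1265 ± 138 and 1333 ± 85 CPM (SD, n = 3), a difference that did not pass the test (0.09, adjusted p = 0.22). Of 20 tested matrix glycoproteins and proteoglycans 11 were called higher and 4 lower (median 0.39). MGP, an inhibitor of mineralization, was at 0.397, 1.21 and 0.267 CPM on day 0 and 8.08, 5.71 and 7.23 CPM on day +2 (3.51, adjusted p = 2.7e-09). ECM1 rose by 1.29 and POSTN, periostin, by 1.69 from 0.115 CPM. TGFBI, a collagen-binding adhesion protein, was at 265, 258 and 254 CPM on day 0 and 75.8, 70.5 and 75.7 CPM on day +2 (−1.8), and THBS1, EFEMP1 (−0.86) and HSPG2 (−0.53) also fell. In the list of collagen hydroxylases and lysyl oxidases, which also held SERPINH1, BMP1 and PCOLCE, 10 of 14 members were called higher and 2 lower (median 0.28). LOXL3 (1.12) and LOXL1 (1.09) rose, and LOX itself (79.3 and 43.9 CPM, −0.84) and LOXL2 (−0.58) fell.

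Among the metalloproteinases and their inhibitors, 6 of 15 tested members were called higher and 4 lower (median 0.22). MMP9, the other gelatinase, was at 6.66, 7.44 and 7.63 CPM on day 0 and 70.1, 67.2 and 63.6 CPM on day +2, a 9.37-fold rise (log2 fold change 3.23, SE 0.079, adjusted p = 2.1e-19). MMP14, the membrane protease that activates pro-MMP-2, was at 100.1, 108 and 130.0 CPM on day 0 and 309, 290.0 and 274 CPM on day +2 (1.38). MMP17, another membrane-bound member, rose by 1.33. In the opposite direction, MMP3, stromelysin 1, was at 8.2, 6.11 and 8.23 CPM on day 0 and 0.104, 0.154 and 0.24 CPM on day +2, with an adjusted p of 1.5e-13 and a log2 fold change of −5.46. MMP24 was at 49.9 and 12.2 CPM (−2.02), and MMP7 (−0.89) and MMP15 (−0.26) fell as well. Lysosomal genes mostly rose, with 16 of 24 members called higher and 2 lower (median 0.45). CTSO had the largest log2 fold change, 1.81, from 1.07 to 3.67 CPM, and after CTSB the next were CTSD, cathepsin D (57.6, 59.7 and 64.3 CPM on day 0 and 116, 114 and 113 CPM on day +2, 0.93), and CTSF (0.93). TFEB, the regulator of lysosome genes, rose by 0.88. CTSL (−0.50) and CTSC (−0.14) were called lower, 1 of them when day 0 replicate 1, day 0 replicate 2 or day +2 replicate 2 was left out.

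Lysosomal genes are known to carry E-box elements bound by TFEB, searched here as TCACGTG on both strands. The letters were found in 6 of 14 promoters of the lysosomal list (42.9%) and in 3.38% of all promoters. Below, CTSD (chr11:1763928-1764177, - strand) and CTSA, the protective protein cathepsin A (chr20:45891085-45891334, + strand), are shown with these letters in capitals. CTSA had a log2 fold change of 0.42. Of its 3 matches, those starting 26 and 25 bases before the RefSeq start overlap as the 2 strands of 1 palindrome.
CTSD: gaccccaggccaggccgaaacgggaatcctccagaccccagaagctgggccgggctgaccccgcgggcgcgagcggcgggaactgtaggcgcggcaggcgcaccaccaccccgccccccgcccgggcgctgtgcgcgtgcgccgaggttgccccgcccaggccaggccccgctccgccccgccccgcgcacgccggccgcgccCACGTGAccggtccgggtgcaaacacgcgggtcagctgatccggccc
CTSA: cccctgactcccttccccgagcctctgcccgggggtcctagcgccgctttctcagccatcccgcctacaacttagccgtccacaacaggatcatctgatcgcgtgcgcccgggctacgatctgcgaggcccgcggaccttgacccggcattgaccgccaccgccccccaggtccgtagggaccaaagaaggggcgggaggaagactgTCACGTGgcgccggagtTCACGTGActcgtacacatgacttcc

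In the list of YAP targets and Hippo pathway genes, which respond to adhesion and cell shape, members moved both ways. Of its 15 tested members 8 were called lower and 5 higher (median −0.17, and −0.30 in DESeq2). CYR61 was at 286, 309 and 291 CPM on day 0 and 141, 130.3 and 127 CPM on day +2 (log2 fold change −1.14, SE 0.051, adjusted p = 8.7e-15). CRIM1 (−1.11) and AJUBA (−0.73) fell as well, while CTGF was at 233 ± 13.7 and 215 ± 1.45 CPM (SD, n = 3) and did not pass the test (adjusted p = 0.087). The regulators WWTR1, which encodes TAZ (42.5, 39.9 and 40.5 CPM on day 0 and 125, 132 and 146 CPM on day +2, 1.72), AMOTL1 (0.59), PTPN14 (0.49), YAP1 (0.31) and TEAD1 (0.14) were called higher. In the list of SRF targets and actin contractility 7 of 13 tested members were called lower and 3 higher (median −0.15). The smooth muscle proteins CNN1 (6.56, 7.34 and 8.05 CPM on day 0 and 2.02, 1.25 and 1.65 CPM on day +2, −2.14) and TAGLN (−1.78) and the tropomyosin TPM1 (493 and 166 CPM, −1.56) fell. VCL, vinculin (0.61), SRF (0.36) and CNN2 (0.23) were called higher.

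Immediate early genes also divided, with 7 of 14 called higher and 4 lower. EGR1 was at 34.8, 32.5 and 45.2 CPM on day 0 and 178, 186 and 194 CPM on day +2 (log2 fold change 2.33, SE 0.081, adjusted p = 1.1e-16), EGR2 and EGR3 rose by 2.49 and 2.58 from 0.491 and 0.247 CPM, and FOS rose by 1.63. MYC was at 129.7, 138 and 130.2 CPM on day 0 and 47.6, 51.7 and 55.1 CPM on day +2 (−1.36), and DUSP1, a phosphatase of MAP kinases (37.2 and 9.3 CPM, −1.99), FOSL2 (−0.81) and JUN (−0.29) fell. The list median of 0.32 was 0.77 without day 0 replicate 3 and 0.53 without day +2 replicate 3.

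Genes of antigen presentation and the interferon response rose or did not pass the test. Of 16 antigen presentation genes 12 were called higher and 0 lower (median 0.70), and of 20 interferon-stimulated genes 10 were called higher and 0 lower (median 0.61). B2M, the common light chain of class I molecules, was at 359.6, 359 and 342 CPM on day 0 and 646, 573 and 615 CPM on day +2 (log2 fold change 0.80, SE 0.046, adjusted p = 1e-12). PSMB9, an immunoproteasome subunit, was at 11.5 and 21.2 CPM (0.89). HLA-DRA rose by 2.46, from 0.193 to 1.1 CPM, and HLA-F by 1.02. Among the interferon-stimulated genes IFIT2 was at 1.92, 1.13 and 0.921 CPM on day 0 and 8.11, 6.42 and 6.2 CPM on day +2 (2.34), OASL rose by 1.99 and the RNA sensor DDX58 by 1.05. Classic members such as ISG15 (−0.12, adjusted p = 0.48) and MX1 (−0.21, adjusted p = 0.65) were not called.

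Interferon response elements were searched as GAAANNGAA on both strands, which was found in 7.06% of all promoters. The letters were found in 10 of 14 promoters of the interferon-stimulated list (71.4%) and in 6 of 11 of the antigen presentation list (54.5%). TAP1, a peptide transporter for class I molecules (chr6:32853705-32853954, - strand), rose by 0.67 on the log2 scale, and it and B2M (chr15:44711267-44711516, + strand) each held a pair of overlapping matches, shown in capitals.
TAP1: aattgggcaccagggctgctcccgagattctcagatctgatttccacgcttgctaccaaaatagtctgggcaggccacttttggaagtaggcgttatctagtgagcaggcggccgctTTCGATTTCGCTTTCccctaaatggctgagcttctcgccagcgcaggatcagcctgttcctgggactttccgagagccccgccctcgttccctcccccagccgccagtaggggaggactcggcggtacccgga
B2M: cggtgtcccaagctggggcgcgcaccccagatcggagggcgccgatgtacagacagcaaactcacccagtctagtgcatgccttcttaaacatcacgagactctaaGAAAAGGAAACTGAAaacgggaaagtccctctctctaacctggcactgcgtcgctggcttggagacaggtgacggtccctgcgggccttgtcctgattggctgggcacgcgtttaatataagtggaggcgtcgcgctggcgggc

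Among complement genes 8 of 11 were called higher and 2 lower (median 1.14). A2M, a broad inhibitor of proteases, was at 15.3, 12.8 and 15.4 CPM on day 0 and 172, 151 and 167 CPM on day +2, an 11.3-fold rise (log2 fold change 3.5, SE 0.074, adjusted p = 2.1e-20). SERPING1, the C1 inhibitor, was at 41.6 and 155 CPM (1.91) and C3, the central complement component, at 1.79 and 4.42 CPM (1.3). CFD (−1.72) and CD55 (−0.56) fell. Of 9 tested chemokines and cytokines 4 were called higher and 2 lower. CCL2, a chemokine that attracts monocytes, was at 2.79, 3.42 and 2.55 CPM on day 0 and 44.6, 43.9 and 41.3 CPM on day +2 (3.89, adjusted p = 9.5e-19), IL8 rose by 2.07, and CCL26 (−1.92) and ACKR3 fell. The list median of 0.24 was −0.025 without day 0 replicate 2 and −0.079 without day +2 replicate 2, a change of sign.

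In the TGF-beta and BMP axis ID1, ID3, ID4 and the ligand TGFB2 fell more than 4-fold. Of 21 tested members 10 were called lower and 7 higher (median −0.34, but 0.050 without day 0 replicate 1). ID1 (chr20:30193086-30194318, + strand), an inhibitor of differentiation factors and a direct target of BMP signalling, was at 253, 255 and 293 CPM on day 0 and 61, 62.6 and 54 CPM on day +2, a 4.47-fold fall (log2 fold change −2.16, SE 0.064, adjusted p = 4.9e-18). ID3 (chr1:23884417-23885992, - strand) was at 146, 133 and 148 CPM on day 0 and 30, 31.7 and 26.3 CPM on day +2 (4.82-fold lower). ID4 (chr6:19837601-19842428, + strand) was at 17.9, 15.2 and 17.3 CPM on day 0 and 2.67, 3.68 and 3.21 CPM on day +2 (5.23-fold lower). The days did not overlap in any of the 3 genes, as in 95.9% of all called genes, and ID2 fell by less (−0.34). The ligand TGFB2 was at 214, 212 and 205 CPM on day 0 and 47.2, 52.7 and 52.3 CPM on day +2 (−2.04), and the ligands BMP6 (−1.23), INHBA (−1.17) and BMP4 (211 and 115 CPM, −0.86) fell. In contrast LTBP3, which holds latent TGF-beta in the matrix, rose by 1.31, the ligand TGFB1 was at 184 and 387 CPM (1.08), and NOG, the BMP antagonist noggin, was at 58.5, 66.4 and 60 CPM on day 0 and 115, 112 and 110.2 CPM on day +2 (0.88).

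Other signalling lists were read in the same way. Of 14 tested FOXO targets and genes of growth restraint 10 were called higher, with a median of 1.01, and 0 lower (1 without day 0 replicate 1). The kinase PDK4 rose by 2.21, GAS6, a ligand of the receptor AXL, was at 184, 204 and 213 CPM on day 0 and 701, 723 and 728 CPM on day +2 (1.85), and KLF9 (1.5) and PIK3IP1 (1.48) followed. The forkhead letters GTAAACA were in 1 of 14 promoters of that list (7.14%) and in 2.98% of all promoters. In the IGF axis 5 of 8 were called higher and 2 lower (median 0.31). The binding proteins IGFBP7 (45.6, 45 and 44 CPM on day 0 and 250.3, 236 and 263 CPM on day +2, 2.49) and IGFBP5 (126 and 623 CPM, 2.32) led the rises, while the adaptor IRS1 (−0.91) and IGFBP6 (−0.87) fell. Of 13 tested WNT members 5 were called higher and 4 lower, led by RNF43, a negative regulator of WNT receptors (12.6 and 52.4 CPM, 2.07), and LEF1 (1.43) and with NOTUM (−0.80) lowest. Of 9 tested Notch members 2 were called higher, near the share over all genes, DLL1 (1.72) and HES1 (41.2 and 97.6 CPM, 1.26), and 3 lower, led by JAG1 (−0.41). Of 13 p53 targets 4 were called higher, led by GDF15 (2.79 and 11.3 CPM, 2.05), and 5 lower, led by PHLDA3 (−0.69). The number lower was 3 without day 0 replicate 2 or day +2 replicate 2.

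The clustered protocadherin beta genes, neighbours on chromosome 5 that encode neuronal adhesion molecules, moved as a block. Of 15 members 14 were called higher and 0 lower, and the median of 1.39 was the highest of the 34 lists. PCDHB15 was at 0.595, 0.912 and 0.594 CPM on day 0 and 3.13, 4.02 and 3.11 CPM on day +2 (log2 fold change 2.3, SE 0.28, adjusted p = 3.6e-07) and PCDHB14 was at 5.21, 5.4 and 4.75 CPM on day 0 and 19.6, 20.4 and 20.2 CPM on day +2 (1.98). The day +2 libraries of both lay well above those of day 0. PCDHB3, at 0.295 and 0.631 CPM, was the member not called (adjusted p = 0.14). These genes are close copies of one another, so reads may have been lost or assigned to the wrong copy. Osteoblast genes rose in part, with 6 of 8 tested called higher and 1 lower (median 0.69). TNFRSF11B, the decoy receptor osteoprotegerin, was at 25.3, 24.8 and 25.9 CPM on day 0 and 225, 239 and 263 CPM on day +2 (3.27, adjusted p = 3e-21), PHEX rose by 2.58 and SPP1, osteopontin, by 1.5, and MSX2 fell (−0.70). The list members SP7, BGLAP, IBSP, DMP1 and SOST were too low to be tested.

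Histone, ribosomal protein and mitochondrially encoded genes shifted by small steps. Of 12 tested histone genes 7 were called lower, led by HIST1H2BC (−1.01) and HIST1H2AC (62.4 and 33 CPM, −0.91), and 2 higher, HIST2H2BE (0.51) and H3F3B (0.41), with a median of −0.27. Since most replication-dependent histone mRNAs lack a poly(A) tail, these libraries hold only part of them. Of 53 ribosomal protein genes 19 were called lower and 7 higher (median −0.064, and −0.0015 without day +2 replicate 2), and the 7 became 4 without day 0 replicate 1 or 2 and 11 without day +2 replicate 2. RPS10 was at 3.72, 5.17 and 4.84 CPM on day 0 and 1.74, 2.23 and 1.1 CPM on day +2 (−1.42), a far larger fall than the next, RPL14 (−0.35), and it shares exons with a readthrough gene, so its reads are uncertain. Of 13 mitochondrially encoded genes 7 were called higher and 1 lower (median 0.20, but 0.106 without day 0 replicate 1 and 0.118 without day +2 replicate 1). The largest rise was that of MT-ND6 (0.46) and the fall that of MT-ND2 (−0.17), and the number lower ranged from 0 to 3 when libraries were left out. These genes moved with the mitochondrial share of each library given above, whose part in the result was not tested. Of 3 tested metallothioneins MT2A rose (0.73) and MT1E (133 and 47.4 CPM, −1.47) and MT1X (−0.97) fell.

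To ask where the change of MMP2sh1 cells differed in size from that of control cells, an interaction of line and day was fitted to the 12 libraries of both lines. Of 20773 genes 967 were called (4.66%), 593 with a change that was more positive in MMP2sh1 cells (2.85%) and 374 more negative (1.8%). The number depended on single libraries of either line. It was 632 without control day +2 replicate 2 and 610 without control day +2 replicate 3. Leaving out 1 MMP2sh1 library gave 662 (day 0 replicate 2), 676 (day +2 replicate 2) and as many as 1269 (day +2 replicate 1). The 374 became 234 to 248 without day 0 replicate 2 or day +2 replicate 2 of either line. An interaction with MMP2sh2 in place of control called 309 of 20626 genes (1.5%), 227 more positive (1.1%) and 82 more negative (0.398%). That count was 525 in DESeq2, and 175 to 184 without day 0 replicate 1 or 2 of MMP2sh1 or MMP2sh2. Both interactions use the same MMP2sh1 libraries, so they are not independent.

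The most negative interactions with control were those of the ID genes. In control cells ID3 was at 167 ± 19.9 CPM on day 0 and 169 ± 20.7 CPM on day +2 (SD, n = 3), while in MMP2sh1 cells it went from 142 ± 7.78 to 29.3 ± 2.79 CPM. The interaction was −2.3 on the log2 scale (SE 0.11, adjusted p = 1e-15). ID1 was at 266 ± 37.7 and 201 ± 34.5 CPM in control cells (interaction −1.77, SE 0.12, adjusted p = 1.8e-11) and ID4 at 16.6 ± 3.1 and 12.1 ± 1.66 CPM (interaction −1.95, SE 0.19, adjusted p = 1.6e-08). The fall was not particular to MMP2sh1. In MMP2sh2 cells ID1 went from 297 ± 9.72 to 67.7 ± 6.54 CPM and ID4 from 18.3 ± 0.631 to 4.3 ± 0.732 CPM, and neither differed between the shRNAs by the test (adjusted p = 0.9 and 0.53). ID3 went from 166 ± 6.83 to 45.5 ± 7.68 CPM, with a difference of −0.42 at the threshold (adjusted p = 0.05), and this call was lost without any 1 of 10 of the 12 libraries. Within the same list NOG had the opposite interaction, rising in MMP2sh1 cells and standing at 78.7 ± 3.53 and 61.6 ± 5.67 CPM in control cells (interaction 1.22, adjusted p = 5.1e-11), and it also differed from MMP2sh2 (0.52, adjusted p = 0.00046). SMAD7, an inhibitory SMAD (−0.55), and TGFB2 (−0.45) were more negative in MMP2sh1 cells than in control. The list had 3 members more positive and 5 more negative of 22 tested, against 2.85% and 1.8% over all genes.

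The other negative interactions were those of TNNT2, AC011738.4 and STC1. TNNT2 fell in both lines, from 13.7 ± 1.19 to 1.52 ± 0.343 CPM in control, and fell further in MMP2sh1 cells (interaction −1.48, adjusted p = 0.00012). AC011738.4 went from 7.97 ± 0.603 to 1.92 ± 0.454 CPM in control (interaction −1.62, adjusted p = 0.0006). STC1, the secreted hormone stanniocalcin 1, was at 9.31, 8.03 and 9.15 CPM on day 0 and 3.68, 5.27 and 5.87 CPM on day +2 in MMP2sh1 cells and went from 6.11 ± 0.504 to 10.5 ± 3.65 CPM in control (interaction −1.62, adjusted p = 9.4e-05). None of these differed from MMP2sh2 by the test, with adjusted p = 0.28, 0.41 and 0.58.

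The most positive interactions were led by genes from the top of the list of rises. RGS16 went from 5.09 ± 0.435 to 32.8 ± 3.02 CPM in control cells and reached 83.2 ± 8.44 CPM in MMP2sh1 cells (interaction 2.16, SE 0.16, adjusted p = 6.2e-11). PLCH1 went from 5.28 ± 1.01 to 30.6 ± 3.51 CPM in control and reached 66.9 ± 6.24 CPM (interaction 2.15, SE 0.17, adjusted p = 2.9e-10). F13A1 went from 4.47 ± 0.299 to 49.4 ± 7.58 CPM in control and reached 162 ± 7.79 CPM (interaction 1.67, SE 0.14, adjusted p = 7.4e-10). In each of these genes the control line rose as well, by less. EPHA4, a receptor for ephrins, was at 3.64, 3.25 and 4.54 CPM on day 0 and 14.6, 14.9 and 13 CPM on day +2 in MMP2sh1 cells but at 6.16 ± 0.737 and 5.64 ± 1.66 CPM in control (interaction 2.04, adjusted p = 4.2e-07). SDPR, which encodes the caveolar coat protein cavin-2 (interaction 1.6, adjusted p = 1.2e-08), and PCDH1, a protocadherin (interaction 1.54, adjusted p = 6.5e-08), completed the 6. Relative to MMP2sh2, SDPR (0.67, adjusted p = 0.0024) and PCDH1 (1.12, adjusted p = 0.00017) also rose by more in MMP2sh1 cells. The values of RGS16 (0.59, adjusted p = 0.086) and PLCH1 (0.63, adjusted p = 0.063) did not pass, and those of F13A1 and EPHA4 had adjusted p = 0.95 and 0.54.

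**Figure D4:**
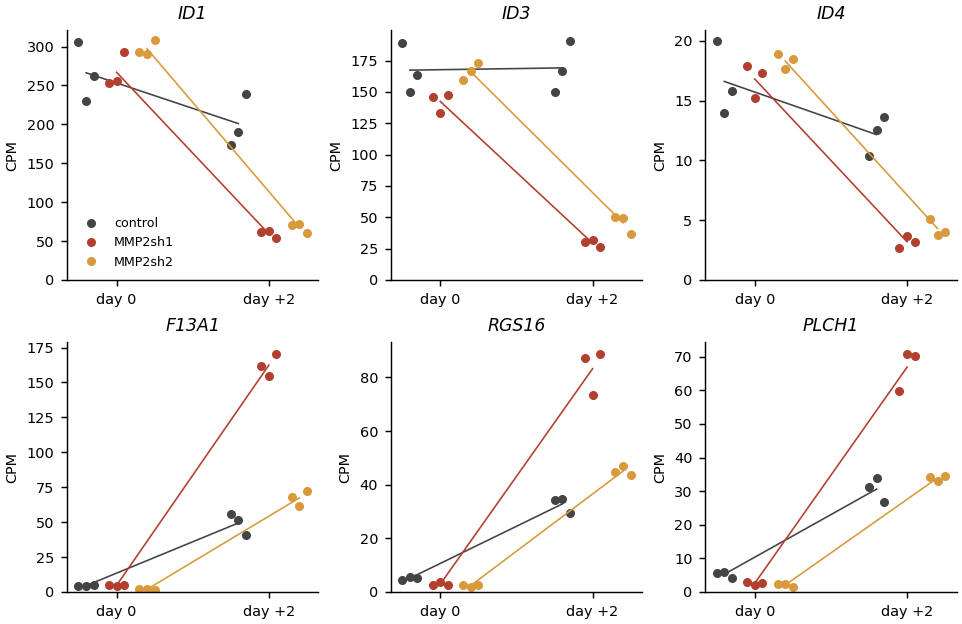
CPM of each library (points) and the mean of 3 libraries (ends of the lines) on day 0 and day +2 in control (grey), MMP2sh1 (red) and MMP2sh2 (yellow) cells for ID1, ID3, ID4, F13A1, RGS16 and PLCH1, on linear axes from 0. The ID genes drop in both depleted lines while ID3 stays near 168 CPM in control, and the lower 3 genes reach their highest level in MMP2sh1 cells on day +2.

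Of 21 tested glycolysis and hypoxia genes 11 had a more negative change in MMP2sh1 cells than in control (1.8% over all genes), 1 a more positive one (2.85% over all genes), and 9 were not called. HK2, hexokinase 2, was at 27.4 ± 0.763 and 23.6 ± 1.56 CPM in MMP2sh1 cells and went from 21.9 ± 1.17 to 40 ± 8.47 CPM in control (interaction −1.09, SE 0.14, adjusted p = 3.1e-06). BNIP3 had an interaction of −1.0 (SE 0.14, adjusted p = 1.2e-05) and ENO2, an enolase isoform, one of −0.58 (adjusted p = 3.6e-05). EGLN3, an oxygen-sensing hydroxylase, had the value −1.38 (adjusted p = 0.022), with means of 3.1 and 2.36 CPM in MMP2sh1 cells and 3.06 and 6.04 CPM in control. LDHA went from 1259 ± 36.4 to 733 ± 49.2 CPM in control (interaction −0.43, adjusted p = 1.8e-05). VEGFA was the member with the more positive change (0.35, adjusted p = 0.0073). Relative to MMP2sh2 0 of 20 tested members were more negative (0.398% over all genes) and 4 more positive (1.1% over all genes), a number that was 1 or 2 without day 0 replicate 2 or 3 of MMP2sh1, or day 0 replicate 1 or 2 or day +2 replicate 1 of MMP2sh2.

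Of 20 stress response genes 8 had a more positive change in MMP2sh1 cells than in control (2.85% over all genes), 0 a more negative one (1.8% over all genes), and 12 were not called. CHAC1 was at 4.57 ± 0.242 and 6.59 ± 0.87 CPM in control (interaction 1.34, SE 0.20, adjusted p = 5e-05) and ASNS at 92.5 ± 4.17 and 136 ± 11.8 CPM (interaction 0.77, SE 0.09, adjusted p = 6.3e-07). SLC7A11, the cystine transporter, was at 89.2 ± 3.88 and 103 ± 14.6 CPM in MMP2sh1 cells and at 68.2 ± 3.41 and 46.6 ± 7.42 CPM in control (interaction 0.77, adjusted p = 5.9e-05). Relative to MMP2sh2 1 of 20 was more positive, SHMT2 (0.27, adjusted p = 0.047), and the number was 0 to 2 in the alternatives, and was 0 when any of 10 of the 12 libraries was left out. Against the same shares over all genes, of 15 tested growth restraint genes 5 were more positive than in control and 0 more negative, among them KLF6 (0.87), and of 12 histone genes 5 were more negative and 0 more positive, among them HIST1H1C (−0.77). Against MMP2sh2, 1 of 14 tested growth restraint genes was more positive (1.1% over all genes) and 0 more negative (0.398% over all genes). Of 12 histone genes 0 were called there. HIST1H1C, a linker histone, was at 121 ± 0.59 and 90.1 ± 6.74 CPM in MMP2sh1 cells and at 150.3 ± 12.4 and 191 ± 12 CPM in control. Of 53 ribosomal protein genes 11 were more negative than in control, a number that ran from 3 to 31 when single libraries were left out. Against MMP2sh2, 0 of the 53 were more negative and 2 more positive (1 to 11 over the alternatives). Of 14 genes in the list of collagen hydroxylases and lysyl oxidases 6 were more positive than in control (2 to 6 over the alternatives). For matrix glycoproteins the number was 6 of 21 (3 to 8) and for collagens 5 of 18 (3 to 8). For protocadherin beta genes it was 4 of 15 (3 to 7) and for complement genes 3 of 11 (2 to 4). Against MMP2sh2 the numbers more positive were, in the same order, 1 of 14, 3 of 21, 3 of 17, 0 of 15 and 4 of 11. The collagen number ran from 0 to 6 over the alternatives, and 1 matrix glycoprotein was more negative. Of 20 cholesterol synthesis genes 0 were called in the interaction with control, of 27 DNA replication genes 1 (0 to 3 over the alternatives), of 23 mitosis genes 1 and of 20 interferon-stimulated genes 0, although the median over the interferon list was −0.16. Of the proteases, MMP9 (4.95 and 19.9 CPM in control, interaction 1.21, adjusted p = 2.8e-07) and MMP14 (interaction 0.59, adjusted p = 2.4e-05) rose by more in MMP2sh1 cells than in control, and by more than in MMP2sh2 cells as well (0.89 and 0.51, adjusted p = 0.0041 and 0.002).

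**Figure D5:**
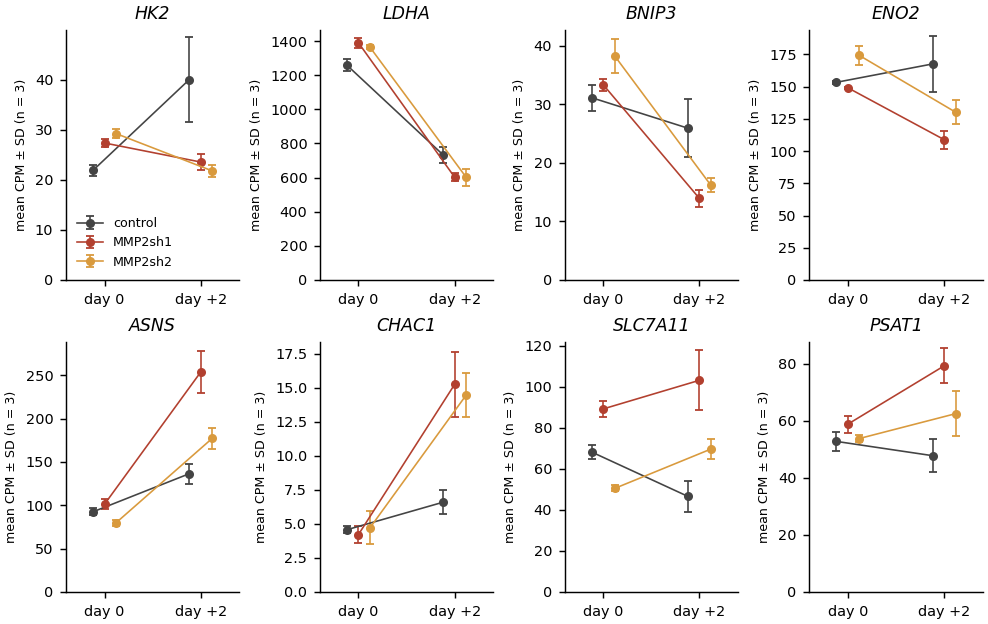
Mean CPM with SD (n = 3 libraries) on day 0 and day +2 in control (grey), MMP2sh1 (red) and MMP2sh2 (yellow) cells for 4 glycolysis and hypoxia genes (top) and 4 stress response genes (bottom), on linear axes from 0. Control cells end above both depleted lines in the top row, and MMP2sh1 cells end above control in the bottom row, with ASNS at 254 against 136 CPM.

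Markers of other cell types were then read in all 6 libraries. Of 6 haematopoietic markers CD3E, CD68 and HBB had 0 counted reads in every library, which allows up to 3 counts or 0.0893 CPM in the shallowest, and the sum of the 6 was 0.475 to 0.961 CPM on day 0 and 0.155 to 0.431 CPM on day +2. The adipocyte markers summed to 0.144 to 0.419 CPM over the 6 libraries and those of skeletal muscle to 0.0777 to 0.947 CPM. Endothelial markers summed to 5.54 to 6.24 CPM on day 0 and 2.85 to 4.91 CPM on day +2, and neuronal markers to 22.2 to 24 CPM and 16.2 to 20.4 CPM. Epithelial markers summed to 10.2 to 12 CPM on day 0 and 15.7 to 18.8 CPM on day +2, where KRT14 rose (log2 fold change 1.88, adjusted p = 5.7e-11) and CDH1 (−2.64, adjusted p = 0.0021) and EPCAM (−0.55, adjusted p = 0.014) fell. Chondrocyte markers summed to 171 to 181 CPM on day 0 and 331 to 350 CPM on day +2, of which SOX9, a factor also present in osteosarcoma lines, made up 303 to 319 CPM on day +2. SOX9 rose (1.22, adjusted p = 7.1e-16), ACAN, the cartilage proteoglycan aggrecan, fell (−1.39, adjusted p = 4.9e-08), and COL2A1 and MATN3 did not pass the test. The part of such cells in the results above was not tested.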

How the data were processed

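RNA-seq counts of 27 libraries (9 groups of 3) were used, of which 6 MMP2sh1 libraries gave the main comparison and 12 each interaction. The deposited values are the authors' raw counts per gene symbol, 1 table per library. Upstream, adapter trimming was by Trim Galore 0.6.0, alignment to hg19 by STAR 2.7.3a and unstranded counting over exons by HTSeq 2.0.0. The 5 summary lines (16.8% to 19.1% of each total) were left out. Ambiguous reads were 6.95% to 7.83% of each total and were counted for no gene. Tests were edgeR's quasi-likelihood tests (edgeR 4.0.16, R 4.3.3) with TMM scaling, filterByExpr (minimum count 10, minimum total 15) and Benjamini-Hochberg adjustment at 0.05. They ran without a replicate block. SE was the absolute log2 fold change over the square root of F. CPM (reads per 1e6 reads on genes) used TMM factors over all 27 libraries. The scripts were tested on simulated counts. A p-value measures the spread between libraries, whose separate origin only the study's description states. The members and gene lists were chosen with earlier results of these data known.

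Named were MMP2 and CTSB, the 12 largest rises and falls (mean of at least 5 CPM, no overlap), the 6 most abundant genes changed over 2-fold in each direction, the 6 largest interactions with control in each direction, and, from each list, members with the largest changes in the main direction with those called in the other. COL1A1, CTGF, ISG15, MX1, ID2, PCDHB3, TFEB, the promoter examples and the list examples of the interactions were chosen after their values were seen. Some list members are counted but not reported here by name. Alternatives were DESeq2 1.42.0, RLE scaling, no filter, at least 10 counts in every library, a replicate block, edgeR on all 27 libraries and leaving out each library. Gene positions are GENCODE v44 lifted to GRCh37 (hg19), in which SDPR and AC011738.4 had no match by symbol. Promoters are the 250 bases before the first-listed RefSeq start of each symbol (GRCh38.p14). Motif matches are descriptions of list members, do not depend on the change between the days and were not tested.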

Additional observations from a re-analysis of the deposited data

Results flagged for a closer look

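Listed here are the 12 genes chosen for the most extreme called interaction between MMP2sh1 and control cells, day 0 to day +2. A difference by the interaction test over 12 libraries was part of that choice and is not a result. Values are log2 differences, MMP2sh1 minus control. In each gene the direction held in every alternative, but the alternatives reuse the same libraries. The change was more positive in MMP2sh1 cells for RGS16 (2.16), PLCH1 (2.15), EPHA4 (2.04), F13A1 (1.67), SDPR (1.60) and PCDH1 (1.54). It was more negative for ID3 (−2.30), ID4 (−1.95), ID1 (−1.77), AC011738.4 (−1.62), STC1 (−1.62) and TNNT2 (−1.48). Since these genes were picked as extremes, their values are likely larger than a repeat would give. SDPR, which rose from 13.4 ± 2.06 to 84.9 ± 2.89 CPM in MMP2sh1 cells (SD, n = 3), was at 16.8 ± 0.729 and 35 ± 7.76 CPM in control. PCDH1 went from 3.52 ± 0.263 to 29.8 ± 2.26 CPM in MMP2sh1 cells and from 4.2 ± 0.304 to 12.1 ± 1.01 CPM in control. In STC1 the control libraries of day +2 had an SD of 3.65 CPM around a mean of 10.5 CPM. No explanation of these differences was tested.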

How the results depend on the processing

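The number of genes called between day 0 and day +2 (8904) was 8389 to 8907 under the 6 other settings that kept all libraries and 7913 to 8687 with 1 library left out (higher 3999 to 4390, lower 3914 to 4297). The interaction with control (967) gave 1224 in DESeq2 and 610 to 1269 with 1 library left out (higher 355 to 724, lower 234 to 545). The interaction with MMP2sh2 (309) gave 525 in DESeq2 (386 higher, 139 lower) and 175 to 299 with 1 library left out (higher 127 to 220, lower 45 to 79). Same-numbered libraries of the 2 days correlated at −0.049 to −0.011 in their deviations, so the numbers did not pair them, and a replicate block gave 8389, 773 and 284 calls. List medians changed sign for chemokines (−0.0245 without day 0 replicate 2, −0.0788 without day +2 replicate 2, and up to 0.557 with 1 library left out), the TGF-beta and BMP axis (0.0503 without day 0 replicate 1, and down to −0.389 with another left out) and metallothioneins (0.897 in DESeq2 and 0.804 without the filter, both of which test further members), and the cause was not tested for the first 2 lists. Apart from the list examples, the 37 genes named by rule in the main comparison and the 14 in the interaction with control kept their call or lack of one and their direction in every alternative, as did 10 of 14 in the interaction with MMP2sh2. Of the rest, ID3 lost its call in 13 alternatives, and RGS16, PLCH1 and AC011738.4 gained one in 4, 5 and 1. Depth limits genes near 1 CPM, and 3 libraries per group limit all p-values.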

Other observations

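Gene groups next to the extremes were read after their values had been seen, with no test of the group, and their counts stand against 23.1% of all tested genes called higher and 23% lower. Genes of caveolae, the membrane pits shaped by caveolins and cavins, parted ways. CAV1, the main caveolin, was at 622, 607 and 601 CPM on day 0 and 99.3, 106 and 106 CPM on day +2 (log2 fold change −2.54, SE 0.046, adjusted p = 1.6e-21), and CAV2 was at 50.6, 49.8 and 41.5 CPM on day 0 and 9.14, 12.3 and 11.8 CPM on day +2 (−2.08). PTRF, cavin-1, fell by a small step (−0.43) and EHD2 by −0.93 on the log2 scale. SDPR, cavin-2, was at 14.7, 14.4 and 11 CPM on day 0 and 84.3, 82.4 and 88.1 CPM on day +2 (2.67), so that within this group of 7 tested genes 4 were called lower and SDPR alone higher. Relative to control, CAV1 fell by more in MMP2sh1 cells (interaction −0.49, adjusted p = 5.3e-06). In MMP2sh2 cells CAV1 went from 631 ± 14.9 to 117 ± 6.68 CPM (SD, n = 3). That fall was not distinguished from the one in MMP2sh1 cells (interaction −0.14, adjusted p = 0.41).

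Around the ID genes, the BMP receptors, SMADs and antagonists held 9 members called higher and 6 lower of 21 tested, the latter near the share over all genes. SMAD6, an inhibitory SMAD that BMP signals induce, was at 60.3, 57.6 and 63.7 CPM on day 0 and 18.2, 21.3 and 19.9 CPM on day +2 (−1.6), with an interaction with control of −1.01 (adjusted p = 2.3e-07). In MMP2sh2 cells SMAD6 went from 67.5 ± 2.1 to 22.2 ± 2.45 CPM (SD, n = 3). Its fall there was not distinguished from that in MMP2sh1 cells (interaction −0.013, adjusted p = 0.98). SMAD9 (−0.56), FSTL3 (−1.08), CHRDL1 (−0.89) and BMPER (−3.22) fell. BMPR1B, a type I receptor, was at 12.7, 11.5 and 11.5 CPM on day 0 and 19.4, 24.5 and 25.6 CPM on day +2 (0.97), and its rise was larger than in control (interaction 0.84, adjusted p = 0.00067). It was not distinguished from the rise in MMP2sh2 cells (interaction 0.32, adjusted p = 0.37). The antagonist CHRD rose by 0.75. Keratins moved both ways, with 4 of 10 tested called higher and 3 lower. KRT14 was at 2.91, 3.5 and 3.5 CPM on day 0 and 12.5, 11.8 and 11.7 CPM on day +2 (1.88) and KRT15 rose by 1.4, while KRT80 (−0.95) and KRT8 (−0.41) fell with KRT81.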
